A study of Danio rerio with 6 samples.

Results

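The cytochrome P450 genes of the adult zebrafish olfactory organ were examined here, that is every gene whose name in the deposited table begins with cyp, a family number and a subfamily letter. This rule found 60 of the 33737 genes, 28 of them in P450 families 1 to 3 and 32 in families above 3. In 9040 rows of the table the name is missing, so the rule cannot find a P450 gene among those. The libraries came from fish of a wild-type line derived from AB, at an age of 6 months. The 3 PEA libraries came from fish that had received phenyl ethyl alcohol (PEA), an odorant with the scent of rose, daily over 3 weeks of development. The 3 control libraries, labelled untreated, came from fish that had received distilled water instead. Exposure ended months before sampling, and the dissected tissue is a mixture of neurons, support cells, skin-like epithelium, vessels and blood. The labels speak of triplicates and of 10 fish per group without saying how fish were pooled, so the unit of replication is the library. Each p-value sets the difference between the groups against the spread between these libraries, which is estimated for each gene partly from the other genes.

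P450 enzymes are heme proteins that insert oxygen into small lipophilic molecules, with electrons passed on by a reductase in the endoplasmic reticulum or by a ferredoxin in the mitochondrion. Families 1 to 3 mainly act on foreign compounds, and the nasal mucosa of mammals is known for a high content of such enzymes in its sustentacular cells and glands, where odorants are among the substrates. The other families make or break down steroids, bile acids, retinoic acid, vitamin D and fatty acids.

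Counts assigned to genes came to 43590575 to 46153505 in the PEA libraries and to 45153814 to 49085973 in the control libraries. At this depth 3 counts of a gene equal 0.0586 to 0.0697 CPM, the count relative to the TMM-adjusted library size. Markers of olfactory sensory neurons (12 genes) summed to 1996 to 2520 CPM in the PEA libraries and 2111 to 2206 CPM in the control libraries. Of the 11 that were tested, 5 had a log2 fold change above 0 and 6 below. The marker ebf3b fell below the low-count filter, with 0 counts in PEA 2. The olfactory marker protein gene ompb was at 350, 368 and 385 CPM in PEA 1 to 3, against 321, 361 and 345 CPM in control 1 to 3. The defining liver marker fabp10a had at most 1 count in any library, and 16 liver markers summed to 2.79 to 4.91 CPM in the PEA libraries and 4.07 to 5.12 CPM in the control libraries. Markers of keratinocytes (9 genes) summed to 4213 to 4346 CPM in the PEA libraries and 4647 to 4883 CPM in the control libraries, and krt5 had a log2 fold change of -0.28 (unadjusted p = 0.0386 and adjusted p = 1.00 from edgeR). The part of this difference in the values of the P450 genes was not tested. A list of glucocorticoid receptor targets, which also holds the receptor gene nr3c1, had 18 tested genes. Of these, 5 were highest in the library numbered 1 in both groups and 3 were lowest there, beside 12.4% and 14.1% of all genes tested. The co-chaperone gene fkbp5 was at 1621, 311 and 322 CPM in PEA 1 to 3, against 1414, 99.3 and 100.6 CPM in control 1 to 3. The leucine zipper gene tsc22d3 was instead highest in PEA 2 of the PEA libraries, at 566, 796 and 278 CPM in PEA 1 to 3, against 829, 250 and 149 CPM in control 1 to 3. The summed level of the 20 genes of this list was 4023, 3447 and 1660 CPM in PEA 1 to 3, against 4877, 1280 and 885 CPM in control 1 to 3.

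Of the 60 P450 genes, 41 had enough reads to be tested, 12 had some reads but fell below the low-count filter, and 7 had 0 counts in all 6 libraries. Together they took 0.137%, 0.124% and 0.120% of the counts in PEA 1 to 3, against 0.143%, 0.137% and 0.132% in control 1 to 3. Family 2 alone held 67.0% to 71.4% of the P450 counts in the PEA libraries and 70.8% to 72.7% in the control libraries. The CYP2 gene cyp2ad2 held 32.8% to 39.1% of them in the PEA libraries and 34.4% to 38.7% in the control libraries. These shares are of reads and are not corrected for transcript length, since lengths were not used here. Of the 60 members, 12 averaged at least 10 CPM, 5 of them in family 2, 2 in family 3, 2 in family 27 and 1 each in families 20, 26 and 46. Another 21 tested members lay between 1 and 10 CPM and 8 below 1 CPM.

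**Figure D1:**
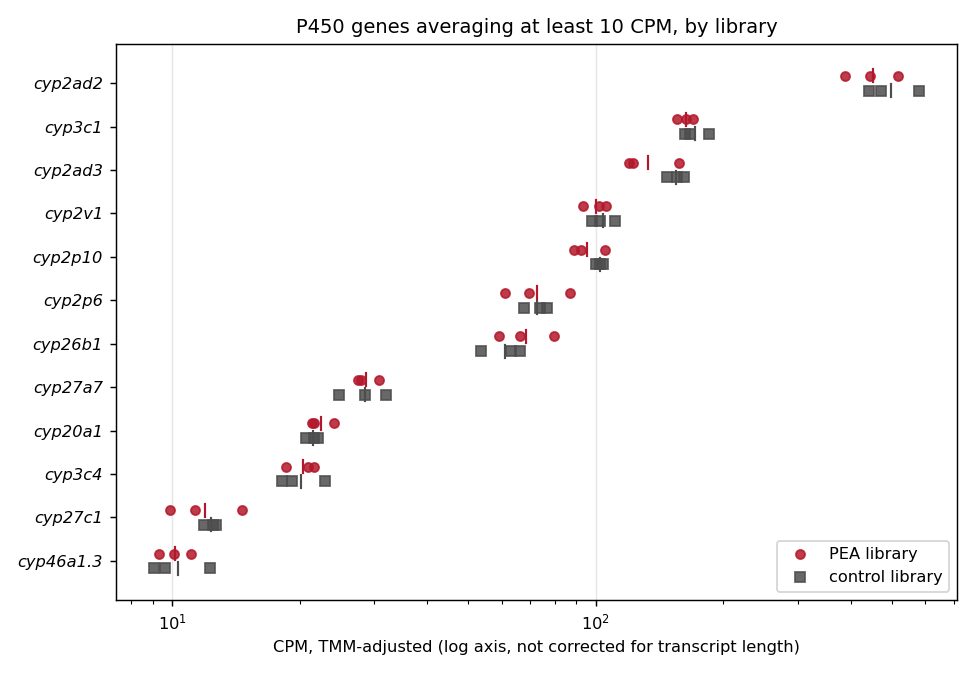
CPM (log axis, TMM-adjusted, not corrected for transcript length) of the 12 P450 genes that averaged at least 10 CPM, with 1 point per library, PEA in red circles above control in gray squares, and a vertical line at each group mean. The points of the groups overlap in each row, and cyp2ad2 lies between 388 and 580 CPM in all 6 libraries.

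No P450 gene passed the test for a difference between PEA and control fish. In edgeR's quasi-likelihood test 0 of the 41 tested members passed an adjusted p of 0.05, the lowest adjusted p among them was 1.00, and the lowest unadjusted p was 0.0998, for cyp8b1. Over all 20628 genes tested, 0% were called as higher in PEA and 0% as lower. At an unadjusted p under 0.05 none of the 41 members lay on either side, against 0.805% of all genes that were higher and 0.853% that were lower in PEA. DESeq2 called 0 of the 53 members it gave a p-value, with 0 at an unadjusted p under 0.05, and called 0.0184% of all genes. The log2 fold change was above 0 in 18 of the 41 members, against 48.5% of all genes tested. The median log2 fold change of the 41 members was -0.05, beside -0.005 over all genes tested. In families 1 to 3 it was -0.086, with 6 of 20 genes above 0, and in families above 3 it was 0.011, with 12 of 21 above 0. The genes of families 1 to 3 summed to 1160, 1139 and 993 CPM in PEA 1 to 3, against 1324, 1130 and 1111 CPM in control 1 to 3. Those of families above 3 summed to 196, 184 and 179 CPM in PEA 1 to 3, against 176, 185 and 169 CPM in control 1 to 3, and the groups overlapped in both sums. In bulk tissue fewer cells of a type and less RNA per cell cannot be told apart, and this holds for each value given here.

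The intervals show how large a change the data still allow. For the 12 members of at least 10 CPM, every 95% interval of the log2 fold change lay between -0.50 and 0.46, that is between 0.709-fold and 1.38-fold. For the 21 members of 1 to 10 CPM the intervals reached from 0.346-fold to 2.32-fold, and 14 of them stayed within a 2-fold change in either direction. For the 8 tested members under 1 CPM they reached from 0.442-fold to 5.64-fold. In 0 of 41 members did all PEA libraries lie above all control libraries (2.56% of all genes tested), and in 1 of 41 did they all lie below (2.94% of all genes tested).

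**Figure D2:**
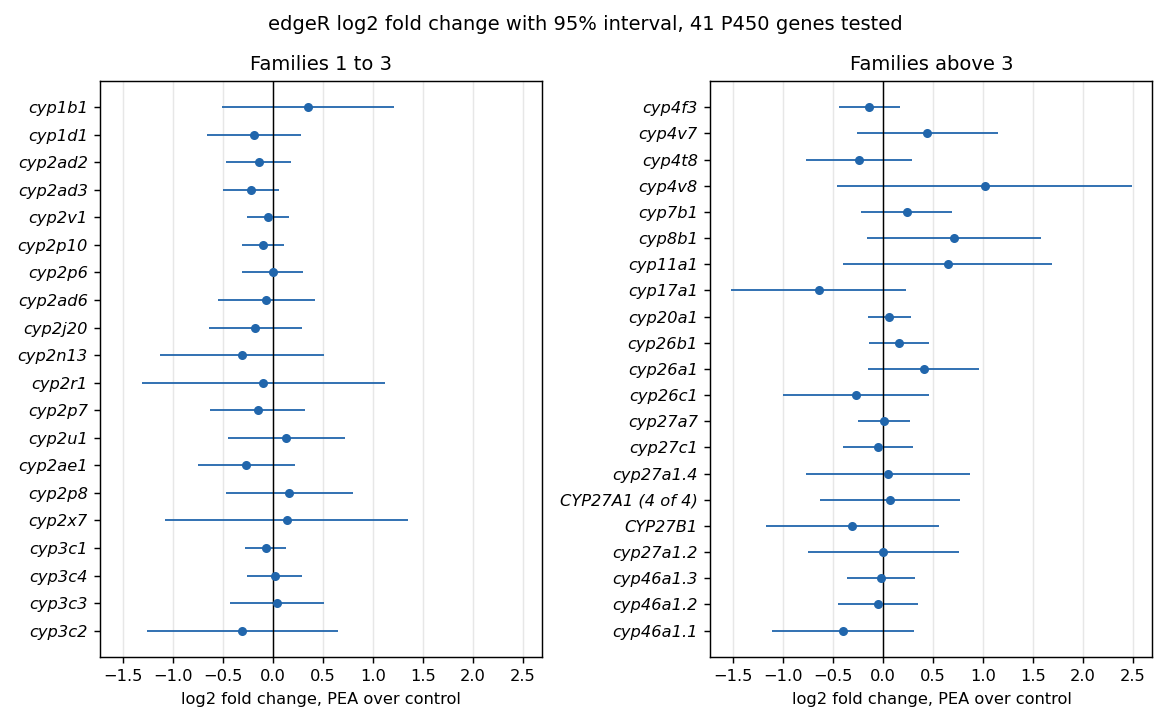
Log2 fold change of PEA over control (edgeR, horizontal axis) with its 95% interval for the 41 P450 genes tested, families 1 to 3 on the left and families above 3 on the right, ordered by family and then by level. Every interval covers 0, and the widest is that of cyp4v8, at -0.46 to 2.50.

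The CYP2 genes with most reads lie side by side. In the GRCz12tu assembly 11 members follow each other on chromosome 20 with no other protein-coding gene between them, in the order cyp2n13, cyp2ad6, cyp2ad2, cyp2v1, cyp2ad3, cyp2p6, cyp2p7, cyp2p8, cyp2p9, cyp2p10 and cyp2j20. RefSeq lists cyp2j names as synonyms of most of them, after the mammalian CYP2J enzymes that oxidize arachidonic acid and drugs. This grouping was made after the counts had been seen. The 11 genes summed to 933, 933 and 776 CPM in PEA 1 to 3, against 1074, 919.5 and 899 CPM in control 1 to 3. The sums of the groups overlapped, since PEA 1 and PEA 2 lay above control 2 and control 3. The level along the cluster was uneven, from cyp2ad2 down to cyp2p9, which had 1, 3 and 5 counts in PEA 1 to 3, against 7, 6 and 4 counts in control 1 to 3. Because the genes are related copies, reads that match several of them could have been split or dropped in the counting, and the division among them is uncertain.

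Of the 10 cluster genes tested, 9 had a log2 fold change below 0 and 1 above, with a median of -0.12 and 0 past the test. Over all genes tested 48.5% were above 0. The 10 are related copies that could share reads, so they are not separate observations. Without control 1, cyp2v1 (0.004), cyp2p6 (0.04) and cyp2n13 (0.118) turned above 0. At that setting cyp2ad2 (-0.013), cyp2ad3 (-0.184) and cyp2p10 (-0.095) stayed below 0. The gene cyp2ad2 (ENSDARG00000021172) was at 445, 517 and 388 CPM in PEA 1 to 3, against 580, 471 and 440.5 CPM in control 1 to 3. Its log2 fold change was -0.14 (SE 0.14, 95% interval -0.47 to 0.18). Its neighbor cyp2ad3 was at 157, 120 and 122 CPM in PEA 1 to 3, against 162, 147 and 156 CPM in control 1 to 3. PEA 2 and PEA 3 were the lowest, while PEA 1 lay within the control range, and the log2 fold change was -0.22 (SE 0.12, unadjusted p = 0.103 from edgeR). The genes cyp2v1 (-0.05, SE 0.09), cyp2p10 (-0.10, SE 0.09) and cyp2p6 (-0.005, SE 0.14) had smaller log2 fold changes. Among the weaker members, cyp2ad6, cyp2j20, cyp2p7 and cyp2p8 had log2 fold changes between -0.18 and 0.16. That of cyp2n13 was the lowest of the cluster, at -0.31 (SE 0.36).

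**Figure D3:**
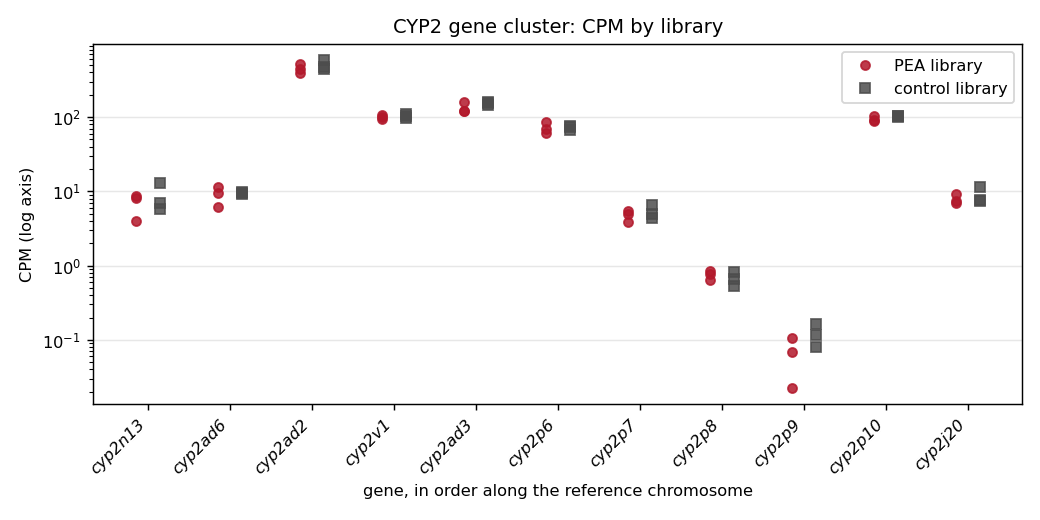
CPM (log axis) of the 11 CYP2 genes of the cluster in their order along the chromosome, with 1 point per library, PEA in red circles left of control in gray squares. The level runs from cyp2ad2, at 388 to 580 CPM, down to cyp2p9, at 0.0227 to 0.162 CPM, and the points of the groups overlap in each of the 11 genes.

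Outside the cluster the CYP2 genes had few reads. The remaining 11 summed to 9.78 to 15.6 CPM in the PEA libraries and to 9.30 to 17.01 CPM in the control libraries, and 4 of them passed the filter. The largest part came from cyp2r1, which in mammals carries out the first hydroxylation of vitamin D, and from cyp2u1, a fatty acid hydroxylase linked to hereditary spastic paraplegia in humans. The gene cyp2u1 was at 4.45, 3.49 and 4.24 CPM in PEA 1 to 3, against 2.36, 4.01 and 4.70 CPM in control 1 to 3 (log2 fold change 0.13, SE 0.26). The gene cyp2ae1 lay at 1.40 to 1.59 CPM in the PEA libraries and 1.55 to 2.09 CPM in the control libraries. Of the 6 cyp2x rows only cyp2x7 was tested, cyp2x6 and cyp2x9 had at most 4 counts in any library, and cyp2x8 and both rows named cyp2x10.2 had 0 counts in all libraries. The genes cyp2k22 and cyp2k31 had at most 2 counts in any library. A count of 0 allows up to 0.0697 CPM in PEA 2, the library of smallest TMM-adjusted size, for counting error only.

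Among the 60 members family 3 was represented by the fish subfamily cyp3c, whose 4 genes were all tested. The gene cyp3c1 (ENSDARG00000015575) was at 164, 156 and 169 CPM in PEA 1 to 3, against 185, 163 and 167 CPM in control 1 to 3. It varied little among the libraries (coefficient of variation 5.97%), with a log2 fold change of -0.08 (SE 0.09, 95% interval -0.28 to 0.13). Next came cyp3c4 at 21.6, 21.0 and 18.6 CPM in PEA 1 to 3, against 23.0, 19.2 and 18.2 CPM in control 1 to 3, and cyp3c3 lay between 3.42 and 5.25 CPM in all libraries. The gene cyp3c2 was uneven within the PEA group, at 1.95, 0.744 and 3.01 CPM in PEA 1 to 3, against 2.67, 2.40 and 2.03 CPM in control 1 to 3. The highest and the lowest library of this gene were both PEA libraries.

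Family 1 holds enzymes that many species induce through the aryl hydrocarbon receptor, and cyp1b1 and cyp1d1 are its members among the 60. The name rule found no other gene of family 1, so its inducible genes may not be covered in full. The gene cyp1b1, which also acts on estrogens and retinoids, was at 13.9, 10.1 and 6.88 CPM in PEA 1 to 3, against 13.2, 5.63 and 5.38 CPM in control 1 to 3. The PEA mean was 10.3 ± 3.52 CPM and the control mean 8.08 ± 4.45 CPM (SD, n = 3 each), and the log2 fold change was 0.35 (SE 0.38, 95% interval -0.51 to 1.22). Without PEA 1 it was 0.08 and without control 1 it was 0.91. The gene cyp1d1, a pseudogene in humans, was at 4.93, 3.39 and 4.64 CPM in PEA 1 to 3, against 3.92, 5.61 and 5.26 CPM in control 1 to 3. Its groups overlapped as well, with a log2 fold change of -0.19 (SE 0.21).

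Retinoic acid is degraded by the cyp26 enzymes, which set where this signal acts in developing and renewing tissue. The gene cyp26b1 (ENSDARG00000077121) was at 79.6, 66.3 and 59.1 CPM in PEA 1 to 3, against 63.2, 66.3 and 53.7 CPM in control 1 to 3. PEA 1 was the highest, PEA 2 was level with control 2, the highest control library, and the log2 fold change was 0.16 (SE 0.13, 95% interval -0.14 to 0.46). The gene cyp26a1 was at 8.27, 6.28 and 10.2 CPM in PEA 1 to 3, against 7.97, 6.22 and 4.52 CPM in control 1 to 3, with PEA 3 and PEA 1 the highest. Its log2 fold change was 0.41 (SE 0.24, unadjusted p = 0.133 from edgeR). The name cyp26c1 stands beside 2 identifiers, of which ENSDARG00000056029 had 71 to 148 counts in the PEA libraries and 100 to 165 counts in the control libraries, while ENSDARG00000097644 had 0 counts throughout. The gene cyp27c1, whose enzyme makes the red-shifted form of vitamin A in fish, was at 9.86, 14.6 and 11.3 CPM in PEA 1 to 3, against 12.7, 11.9 and 12.5 CPM in control 1 to 3. The PEA libraries spread on both sides of the narrow control range, and the log2 fold change was -0.05 (SE 0.15).

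Enzymes of steroid hormone synthesis among the 60 members were at or near the detection limit, apart from cyp11a1 and cyp17a1. The gene cyp11a1, which cuts the side chain of cholesterol, was at 1.32, 0.488 and 0.953 CPM in PEA 1 to 3, against 0.904, 0.332 and 0.542 CPM in control 1 to 3 (log2 fold change 0.65, SE 0.46). The gene cyp17a1, which directs the pathway to androgens and cortisol, was at 2.73, 2.02 and 0.826 CPM in PEA 1 to 3, against 3.08, 2.27 and 3.38 CPM in control 1 to 3. PEA 1 lay within the control range, and the log2 fold change was -0.65 (SE 0.39, unadjusted p = 0.129 from edgeR). The steps that complete cortisol had few counts. For estrogen the 60 members hold only the gonadal aromatase, and no other row of family 19 was examined. There were 7 to 9 counts of cyp11c1 per PEA library and 8 to 11 per control library. The gene cyp21a2 had 1, 1 and 4 counts in PEA 1 to 3, against 1, 0 and 0 counts in control 1 to 3. The gonadal aromatase cyp19a1a had 1, 3 and 2 counts in PEA 1 to 3, against 0 counts in each control library, and no fold change is given because both groups lie at or under 3 counts per library. The paralogs cyp11a2 and cyp17a2 had at most 8 and 1 counts in any library. Defining markers of the interrenal gland, the cortisol-producing tissue of fish, were low too, and 4 of the 5 stayed below the filter. The steroid dehydrogenase gene hsd3b1, the 1 that passed, was at 1.93, 0.256 and 0.614 CPM in PEA 1 to 3, against 1.25, 0.899 and 0.763 CPM in control 1 to 3. The cholesterol transporter gene star had at most 9 counts, the ACTH receptor gene mc2r at most 5 and nr5a1b and fdx1b at most 1 in any library. The 5 markers together reached 0.442 to 2.02 CPM in the PEA libraries and 0.984 to 1.55 CPM in the control libraries.

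**Figure D4:**
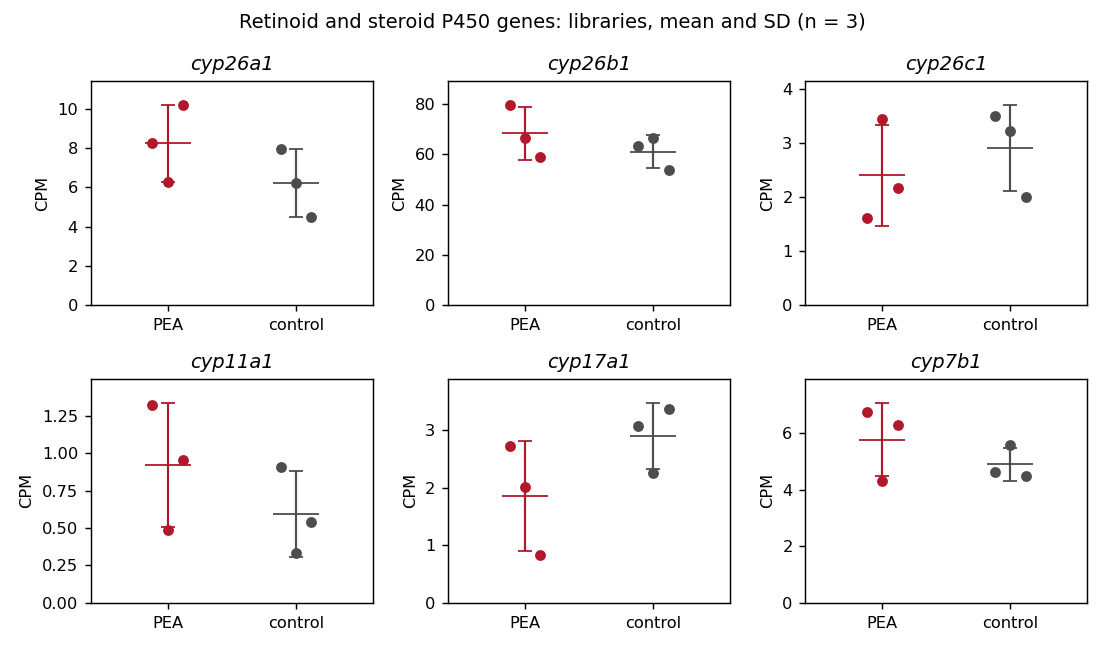
CPM of 6 P450 genes of retinoid and steroid metabolism (cyp26a1, cyp26b1, cyp26c1, cyp11a1, cyp17a1 and cyp7b1), with 1 point per library, PEA left of control, and the mean and SD of 3 libraries as a dash and bars. The groups overlap in each panel, and cyp17a1 has the lowest point of its panel, 0.826 CPM, in the PEA group.

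Enzymes of cholesterol and bile acid metabolism were split between measured and nearly silent genes. The classical liver enzyme cyp7a1a, which limits the rate of bile acid synthesis, had 2 to 7 counts in the PEA libraries and 1 to 5 in the control libraries. The gene cyp8b1 (ENSDARG00000053068), needed for cholic acid, had 30, 14 and 24 counts in PEA 1 to 3, against 18, 13 and 13 counts in control 1 to 3. Its log2 fold change of 0.71 (SE 0.38, 95% interval -0.17 to 1.59) had the lowest unadjusted p of the P450 genes, and PEA 2 lay within the control range. Its copies cyp8b2 and cyp8b3 had 0 counts in all libraries, and their reads could have been dropped or assigned elsewhere if the copies are alike. In contrast, cyp7b1, an oxysterol hydroxylase, was at 6.75, 4.30 and 6.27 CPM in PEA 1 to 3, against 4.63, 5.57 and 4.50 CPM in control 1 to 3 (log2 fold change 0.24, SE 0.20). The sterol hydroxylase gene cyp27a7, now named cyp27a1.1, was at 27.9, 27.4 and 30.8 CPM in PEA 1 to 3, against 24.8, 28.6 and 32.04 CPM in control 1 to 3. The other 3 rows with cyp27a1 names lay between 0.395 and 5.92 CPM in all libraries, and the highest value among them was cyp27a1.4 in control 2. The cyp46a1 genes, whose mammalian counterpart clears cholesterol from the brain, were led by cyp46a1.3, with 10.2 ± 0.878 CPM in PEA libraries and 10.3 ± 1.71 CPM in control libraries (SD, n = 3 each). The log2 fold changes of the 3 tested cyp46a1 genes were between -0.40 and -0.02, the lowest that of cyp46a1.1 (SE 0.31), and the row named CYP46A1 (4 of 4) had 3 to 5 counts in the PEA libraries and 4 to 11 in the control libraries. The oxysterol hydroxylase cyp39a1 had 7 to 12 counts in the PEA libraries and 5 to 6 in the control libraries, below the filter of edgeR.

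Fatty acid hydroxylases of family 4 included the only 1 of the 41 tested genes with separated groups, cyp4f3. All PEA libraries lay below all control libraries in 2.94% of all genes tested too, so this count is no trait of the family. Below the filter, cyp19a1a and cyp39a1 had all PEA libraries above the controls, at the few counts given above. Their unadjusted p from DESeq2 was 0.133 for cyp19a1a and 0.322 for cyp39a1. The share of all genes below the filter with such a separation was not computed, so no result is read from it. The gene cyp4f3, whose human counterpart inactivates leukotrienes, was at 5.34, 5.11 and 5.12 CPM in PEA 1 to 3, against 5.35, 5.77 and 6.01 CPM in control 1 to 3. All PEA libraries lay below all control libraries, but PEA 1 and control 1 were almost equal, and the log2 fold change was -0.14 (SE 0.14, unadjusted p = 0.339 from edgeR). The gene cyp4v7 was at 2.02, 1.44 and 3.37 CPM in PEA 1 to 3, against 1.62, 1.84 and 1.57 CPM in control 1 to 3, with a log2 fold change of 0.44 (SE 0.31), which was 0.05 without PEA 3, its highest library. Its copy cyp4v8, like cyp4v7 a counterpart of human CYP4V2, which is mutated in a crystalline retinal dystrophy, had 11, 13 and 8 counts in PEA 1 to 3, against 1, 4 and 12 counts in control 1 to 3. Control 3 lay within the PEA range, and the log2 fold change of 1.02 (SE 0.65) was 2.13 without control 3 and 0.59 without control 1. The gene cyp4t8 lay at 1.25 to 1.57 CPM in the PEA libraries and 1.37 to 1.97 CPM in the control libraries. The orphan enzyme gene cyp20a1, without a known substrate, was steady at 21.4, 24.1 and 21.7 CPM in PEA 1 to 3, against 20.7, 21.6 and 22.2 CPM in control 1 to 3.

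Some P450 genes were highest in the libraries numbered 1. In 12 of the 41 tested members the library numbered 1 was the highest of its group in both groups, against 12.4% of all genes tested, and in 2 of 41 it was the lowest in both, against 14.1%. Of the 12, 9 were in families 1 to 3 and 3 in families above 3. The 9 include 5 genes of the CYP2 cluster, related copies that are not separate observations. These libraries were singled out after values had been seen, so this is a description without a test. The gene with the largest coefficient of variation of those at 1 CPM or more, cyp2r1 (57.1%), was at 9.04, 6.00 and 3.26 CPM in PEA 1 to 3, against 12.1, 4.89 and 2.67 CPM in control 1 to 3. The library numbered 1 was 1.95 times the mean of the other 2 in the PEA group and 3.19 times in the control group. In cyp1b1 this ratio was 1.64 in the PEA group and 2.40 in the control group. The PEA and control libraries overlapped in both genes. The gene cyp2n13 was at 8.59, 8.11 and 3.98 CPM in PEA 1 to 3, against 12.9, 5.87 and 6.87 CPM in control 1 to 3. For cyp11a1 the ratio was 1.83 in the PEA group and 2.07 in the control group, and for cyp8b1 it was 1.64 in the PEA group and 1.62 in the control group. Others of the 12 had ratios nearer 1. The ratio of cyp2v1 was 1.08 in the PEA group and 1.11 in the control group. That of cyp2ad3 was 1.30 in the PEA group and 1.07 in the control group. CYP27B1, which completes the activation of vitamin D begun by CYP2R1, was at 1.04, 0.488 and 0.445 CPM in PEA 1 to 3, against 0.973, 0.841 and 0.643 CPM in control 1 to 3. For fkbp5 the ratio was 5.12 in the PEA group and 14.1 in the control group. Not all glucocorticoid targets shared this, since tsc22d3 had 1.05 in the PEA group and 4.16 in the control group. The part of the glucocorticoid targets in the levels of the P450 genes was not tested. With the libraries numbered 2 and 3 alone 0 P450 genes were called, and the log2 fold changes of cyp1b1 and cyp2r1 were 0.63 and 0.30.

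**Figure D5:**
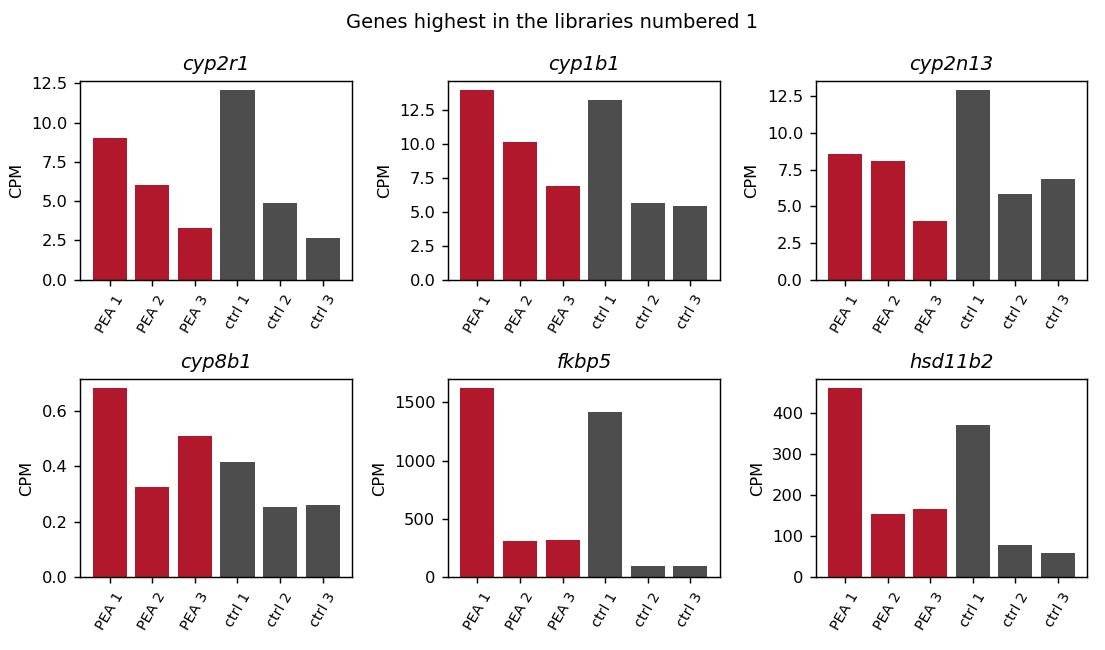
CPM of cyp2r1, cyp1b1, cyp2n13 and cyp8b1, and of the glucocorticoid target fkbp5 and the cortisol-inactivating hsd11b2, in each of the 6 libraries, with PEA libraries as red bars left of control libraries as gray bars. In each panel PEA 1 is the highest PEA library and control 1 the highest control library, as in cyp2r1 with 9.04 and 12.1 CPM.

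The spread within groups was read beside that of all genes, since it limits what the test can call. At 10 CPM or more the median SD of log2 CPM within groups was 0.155 over the 12 P450 genes, beside 0.137 over the 10652 genes of that level. Over all 41 tested members it was 0.281, beside 0.193 over all genes tested, and the median level of the P450 genes was lower (log2 CPM of 2.43, beside 3.45).

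The partners of the P450 enzymes did not pass the test either. Of 11 electron donor genes tested, 0 were called, 0 had an unadjusted p under 0.05, 5 had a log2 fold change above 0 and 6 below. The reductase gene porb, which feeds electrons to P450 enzymes of the endoplasmic reticulum, was at 172, 184 and 163 CPM in PEA 1 to 3, against 194, 167 and 155 CPM in control 1 to 3. Its copy pora was at 70.5, 91.6 and 73.1 CPM in PEA 1 to 3, against 88.1, 87.8 and 92.5 CPM in control 1 to 3 (log2 fold change -0.19, SE 0.11). Of 12 genes of heme synthesis and breakdown 0 were called, with 0 at an unadjusted p under 0.05, and alas1, the rate-limiting enzyme of heme synthesis outside red cells, had a log2 fold change of -0.15 (SE 0.12). Among the 10 tested genes of the aryl hydrocarbon receptor and Nrf2 pathways 0 were called. At an unadjusted p under 0.05, where 0.805% of all genes tested were higher and 0.853% lower in PEA, there was 1. This was nfe2l2a, which encodes the oxidative stress factor Nrf2, at 878, 937 and 888 CPM in PEA 1 to 3, against 768, 769 and 805 CPM in control 1 to 3. Each PEA library was higher than each control library, as in 2.56% of all genes tested. The log2 fold change of nfe2l2a was 0.21 (SE 0.08, unadjusted p = 0.0377 and adjusted p = 1.00 from edgeR). Its target nqo1 had a log2 fold change of 0.06 (SE 0.09).

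Of the other lists, 0 of 14 nuclear receptors of foreign and bile compounds, 0 of 15 retinoid genes, 0 of 13 steroid synthesis genes, 0 of 17 cholesterol synthesis genes and 0 of 15 eicosanoid genes passed the test. The eicosanoid list includes ptgis and tbxas1, P450 genes under other names that are described below. At an unadjusted p under 0.05 there was 1 gene among them, the low-density lipoprotein receptor gene ldlra of the cholesterol list, with a log2 fold change of 0.46 (SE 0.20). Over all genes tested 0.805% were higher and 0.853% lower in PEA at that level. The median log2 fold change was 0.03 for the nuclear receptors, -0.045 for the retinoid genes, 0.005 for the steroid genes, 0.02 for the cholesterol genes and 0.08 for the eicosanoid genes. The gene of lowest p in each of the other lists had a log2 fold change of -0.35 (rxrga, SE 0.19), -0.26 (raraa, SE 0.14), 0.66 (hsd17b3, SE 0.39) and 0.13 (alox12, SE 0.11). The retinoic acid-producing enzyme gene aldh1a2, the counterpart of the cyp26 genes, was at 161, 186 and 175 CPM in PEA 1 to 3, against 172, 190 and 151 CPM in control 1 to 3. The steroid dehydrogenase genes hsd11b2, which inactivates cortisol, and hsd3b7, a bile acid enzyme, were highest in the libraries numbered 1, like cyp2r1 and cyp1b1. The gene hsd11b2 was at 460, 154 and 165 CPM in PEA 1 to 3, against 370, 78.7 and 58.5 CPM in control 1 to 3.

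A few P450 genes carry other names in the table and were not among the 60. The sterol demethylase gene cyp51, which acts in cholesterol synthesis, was at 28.5, 26.8 and 21.8 CPM in PEA 1 to 3, against 27.2, 24.4 and 24.6 CPM in control 1 to 3. The prostacyclin synthase gene ptgis was at 90.1, 75.3 and 73.3 CPM in PEA 1 to 3, against 99.7, 71.9 and 61.0 CPM in control 1 to 3. The thromboxane synthase gene tbxas1 lay between 26.8 and 37.8 CPM in PEA libraries and between 27.9 and 35.2 CPM in control libraries. The log2 fold change was 0.02 (SE 0.12) for cyp51, 0.04 (SE 0.18) for ptgis and -0.01 (SE 0.15) for tbxas1, and none of the 3 passed the test. A further 2 rows, now named cyp27a2 and cyp27a3, had log2 fold changes of -0.10 and 0.10 at 3.90 to 5.65 CPM in the PEA libraries and 4.31 to 5.59 CPM in the control libraries.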

How the data were processed

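RNA of adult olfactory tissue was sequenced in 3 PEA and 3 control libraries. According to the submitters' processing notes, reads were checked with FastQC 0.11.9, trimmed with Trim Galore 0.6.4, aligned with Bowtie2 to Zv9 and counted with HTSeq 0.11.2, and the study tested them with DESeq2 1.24. The deposited values used here are whole-number counts of reads per gene, without normalization. For the strand setting, reads with several alignments and the annotation release, nothing was found: they are not given in the sources used. The 6 columns of the authors' normalized values, and the columns with the authors' means, fold changes and p-values, were not used.

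Counts of all genes were filtered with filterByExpr, scaled by TMM and tested with the quasi-likelihood test of edgeR 4.0.16 in R 4.3.3, with condition as the only factor and Benjamini-Hochberg adjustment over all genes tested (threshold 0.05). Standard errors were derived from that fit, as the absolute log2 fold change divided by the square root of the F statistic. The 95% intervals were built from them with the t distribution. The calls and log2 fold changes of the fit were checked on simulated counts drawn independently for each library. The coverage of the intervals was not tested. DESeq2 1.42.0, other filters and scaling, a replicate block and leaving out each library were the alternatives. Total counts, given in the report, limit the precision of genes with few reads.

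The P450 genes and the other lists were chosen with earlier results of these data known. Named were, in each family, the 2 members of highest mean CPM, the 12 of highest mean CPM over the whole set, the 8 of lowest unadjusted p and the 6 of largest coefficient of variation at 1 CPM or more, and for other lists the rule was the 2 of highest mean CPM and the 1 of lowest unadjusted p, of which not all are shown. Members and markers named outside this rule (ompb, fabp10a, mc2r, nr5a1b and fdx1b among them), the cluster on chromosome 20 and the P450 genes under other names were picked after values had been seen. Current symbols were matched by identifier for 59 of the 60 members, and RefSeq's GRCz12tu, another build, was used only for which genes neighbor each other.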

Additional observations from a re-analysis of the deposited data

How the results depend on the processing

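No P450 gene was called by edgeR or DESeq2 under any of the 12 alternatives. The 0 of 41 at an unadjusted p under 0.05 did change. Without PEA 1 it was 3 of 41, beside 409 of 20922 genes tested by edgeR. Without PEA 2 it was 3 of 41, beside 336 of 20983 genes tested by edgeR. Without control 1 it was 2 of 41, beside 616 of 20985 genes tested by edgeR. With the libraries numbered 2 and 3 alone it was 2 of 41, beside 636 of 20805 genes. Under the other alternatives it was 0 or 1 of 40 to 53 members, beside 307 to 923 of 19397 to 27199 genes. Over all genes, the count of calls was 5 with DESeq2, 0 to 1 with a single library omitted at a time (the 1 without control 3) and 1 with the libraries numbered 2 and 3 alone, an alternative chosen after seeing the data. The median log2 fold change of families above 3 was 0.053 with DESeq2, -0.036 to 0.063 with each library left out and 0.076 with the libraries numbered 2 and 3 alone. That of families 1 to 3 was -0.145 to 0.017 with each library left out, and turned above 0 without control 1. That of all P450 genes turned to 0.005 with the libraries numbered 2 and 3 alone. The labels give 1 PEA and 1 control sample the same group number. Over all genes, the deviations of samples with the same number correlated at 0.168, -0.154 and 0.14 for numbers 1, 2 and 3. Over the 41 P450 genes the correlations were 0.315, 0.075 and 0.051. With 3 samples per group these values cannot decide whether the numbers pair the samples. The main fit left the numbers out, and the replicate block was an alternative. With the replicate block 0 genes were called, the median of the P450 genes was -0.036, and cyp2r1 turned to 0.043. With the libraries numbered 2 and 3 alone the direction turned for cyp2r1 (0.30), cyp27a7 (-0.052), cyp27c1 (0.10), cyp27a1.4 (-0.24) and cyp46a1.2 (0.084). Leaving out libraries turned the log2 fold change of 11 named genes, none of them called. The ranges were -0.49 to 0.69 for cyp2r1 (the highest without control 1), -0.049 to 0.13 for cyp3c4, -0.22 to 0.074 for cyp27c1, -0.23 to 0.60 for cyp27a1.4, -0.15 to 0.10 for cyp2p6, -0.81 to 0.069 for cyp3c2, -0.074 to 0.10 for cyp27a7, -0.10 to 0.13 for cyp46a1.3, -0.091 to 0.004 for cyp2v1, -0.52 to 0.12 for cyp2n13 and -0.21 to 0.086 for cyp46a1.2. The cause was not tested. Of the 28 tested P450 genes that the naming rule picks, 17 kept their direction under each alternative that gave a value (cyp4v8 has none at a minimum of 10 counts in every library), 9 of them higher and 8 lower in PEA. The other P450 genes named in the report were not followed across the alternatives. Depth limits the genes under 1 CPM, whose intervals reached 5.64-fold.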
